A study of Mus musculus with 2 samples.

Results

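The cells described here were Cd209a-positive leukocytes of mouse tumours that carried little or no RNA of the complement genes made by macrophages. They were selected on their own measured counts. A barcode was taken when it held at least 2 UMIs (unique molecular identifiers, each counting 1 captured transcript) of Cd209a and none of the conventional dendritic cell (cDC1) genes Xcr1 and Clec9a. It also had to hold at most 2 UMIs of the maturation genes Fscn1, Ccr7 and Cacnb3 together, at most 1 of the complement genes C1qa, C1qb and C1qc, none of Arg1, and at most 1 of the T and NK cell genes Cd3d, Cd3e, Cd3g, Ncr1 and Klrb1c. The rule took 28 of 15844 barcodes in the Ythdf2 KO library and 78 of 20415 in the WT library, 106 of 36259 in all, among barcodes with at least 200 genes and at most 10% mitochondrial UMIs.

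The libraries hold CD45+ cells that were sorted from digested tumours of C57BL/6 mice, with 1 library for Ythdf2 KO and 1 for WT. Ythdf2 encodes a reader of m6A, the methylated adenosine of mRNA. The labels speak of Ythdf2-KO tumours, the design text of the series of cKO mice and its title of a tumour-intrinsic role, so the cells that lost the gene are not given clearly. With 1 library per genotype there is no replicate, no test was possible, and every interval below is a 95% interval that covers counting error only.

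Type 2 conventional dendritic cells (cDC2) take up antigen in tissues and present it on MHC class II molecules to CD4 T cells. They depend on the receptor Flt3, and mouse cDC2 are commonly recognised by the lectins Cd209a and Clec10a. Monocytes that enter inflamed tissue can turn on class II genes and Cd209a as well, while plasmacytoid dendritic cells carry Siglech and some lectins of the same families, so that these cells overlap in their markers.

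The libraries held 134066610 UMIs in 16312 barcodes for Ythdf2 KO and 168912853 UMIs in 20886 barcodes for WT. Median depth of the kept barcodes was 5753 and 5674 UMIs, in the same order. The libraries share 101 barcode sequences, of which 1 belonged to a selected WT cell and none to a selected Ythdf2 KO cell. Transcripts of the targeted gene, Ythdf2, reached 46.1 CPM (44.9 to 47.3) over all kept Ythdf2 KO barcodes and 48.4 CPM (47.4 to 49.5) over all kept WT barcodes, where CPM is a gene's share of all UMIs of the same cells times 1000000. The selected cells held 8 Ythdf2 UMIs in the Ythdf2 KO library and 17 in the WT library, which gave 36.7 CPM (15.8 to 72.3) and 30.8 CPM (17.9 to 49.3). The ratio of Ythdf2 in the selected cells, Ythdf2 KO over WT, was 1.19 (0.445 to 2.91), and it was 0.439 with a minimum of 4 Cd209a UMIs. The deleted part of the gene is not given in the sources used here and counts outside it check nothing, so Ythdf2 KO names that library by its label throughout.

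Cd209a, a C-type lectin of the DC-SIGN family (chr8:3743397-3748984, minus strand, mm10), was itself rare. Barcodes with at least 2 of its UMIs numbered 81 in the Ythdf2 KO library and 172 in the WT library. The limit on complement genes took away more of them than any other limit, leaving 34 of 75 Ythdf2 KO barcodes and 89 of 150 WT barcodes at its step. Of all Cd209a barcodes, 42 of 81 and 74 of 172 were over it. The selected cells held 138 of 423 Cd209a UMIs of the kept Ythdf2 KO barcodes (32.6%) and 504 of 1070 Cd209a UMIs of the kept WT barcodes (47.1%).

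The selected cells made up 0.177% (0.118 to 0.255) of kept barcodes in the Ythdf2 KO library and 0.382% (0.302 to 0.477) in the WT library, a ratio of shares of 0.463 (0.289 to 0.721). Cd209a barcodes with at least 2 complement UMIs made up 0.126% (0.0771 to 0.195) in Ythdf2 KO and 0.157% (0.107 to 0.221) in WT, a ratio of 0.805 (0.437 to 1.45). Over 11 other settings of the selection the ratio for the selected cells lay between 0.335 and 0.616, below 1 in each. A lower share of selected cells and a lower Cd209a level per cell cannot be told apart, since the rule counts Cd209a. In the cells that were selected, Cd209a ran from 2 to 14 UMIs with a median of 3 in Ythdf2 KO, and from 2 to 32 with a median of 5 in WT, which is a description of the values that chose them.

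The other 4 marker genes stood on most but not all of these cells. At least 1 UMI of Flt3, Kmo, H2-DMb2 or Clec10a was present in 23 of 28 Ythdf2 KO cells (82.1%, 63.1 to 93.9) and 61 of 78 WT cells (78.2%, 67.4 to 86.8). All 4 were present together in 1 Ythdf2 KO cell and 3 WT cells, and none of them in 5 and 17. The summed UMIs of the 4 genes per cell had a lowest value of 0, a median of 3 and a highest value of 12 in Ythdf2 KO cells, and 0, 2 and 14 in WT cells. The values of the libraries overlapped over nearly their whole range.

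**Figure D1:**
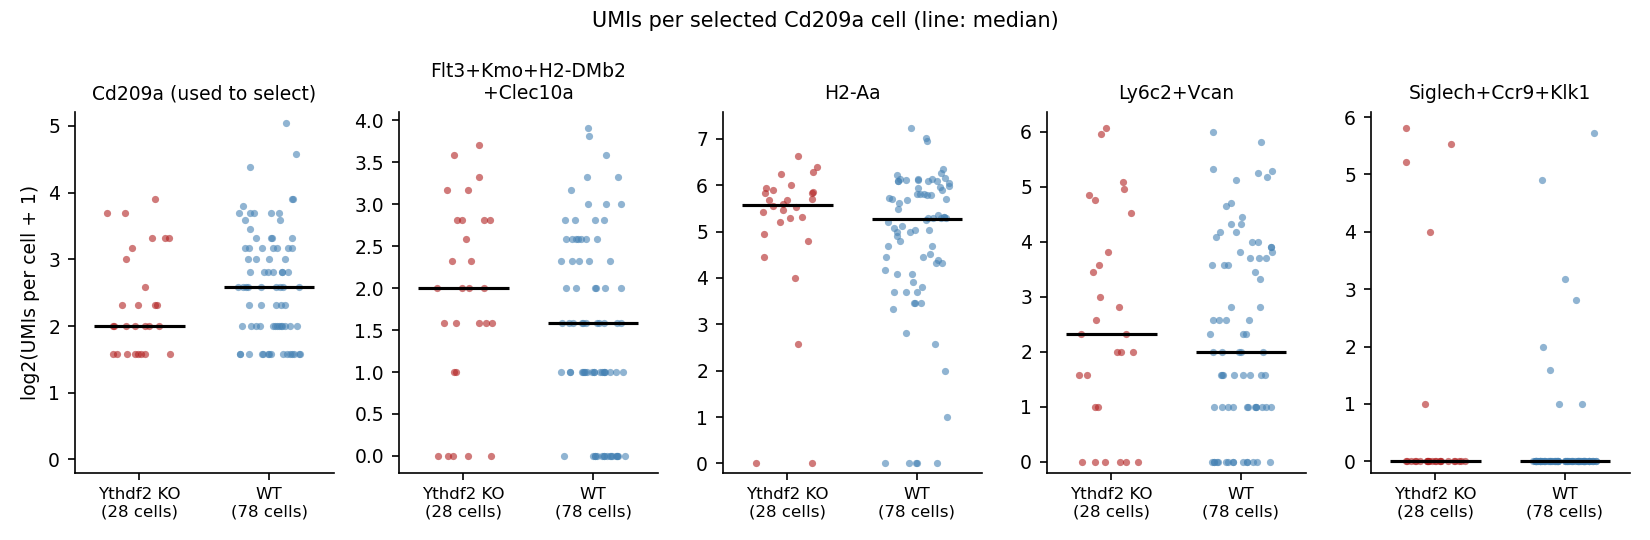
Each point is 1 selected cell, with the log2 of its UMIs plus 1 on the vertical axis, for Ythdf2 KO (28 cells, left) and WT (78 cells, right), and a line at the median. Cd209a had a median of 3 UMIs in Ythdf2 KO and 5 in WT, and H2-Aa 46.5 and 37.5, while the sums of the other marker genes, of Ly6c2 and Vcan and of the plasmacytoid genes ran from 0 upward in both libraries.

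Flt3, the receptor for the growth factor that dendritic cell precursors need (chr5:147330741-147400489, mm10), had 18 UMIs in 11 of 28 Ythdf2 KO cells and 33 UMIs in 23 of 78 WT cells. Its level was 82.6 CPM in the Ythdf2 KO cells and 59.8 CPM in the WT cells. Flt3 in the selected cells was 19.4 times the level of monocytes in Ythdf2 KO and 10.2 times in WT, and 0.496 and 0.459 times the level of cDC1. The other populations were set by summed UMIs of their own genes, such as Ly6c2 and Vcan for monocytes or Siglech, Ccr9 and Klk1 for plasmacytoid dendritic cells.

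Kmo, the enzyme that hydroxylates kynurenine in tryptophan breakdown (chr1:175620381-175662116), had 34 UMIs in 18 Ythdf2 KO cells and 73 UMIs in 33 WT cells. That was 156.0 CPM in Ythdf2 KO and 132 CPM in WT, against 14.6 and 15.2 CPM of Kmo in the monocytes of each library. Plasmacytoid dendritic cells held more Kmo, at 239 CPM in Ythdf2 KO and 239 CPM in WT. Of the 12 genes listed for kynurenine breakdown, 7 had no UMI in the selected cells of either library, Ido1 and Ido2 among them.

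Clec10a, a lectin for galactose-type sugars (chr11:70156197-70170834), had 41 UMIs in 14 Ythdf2 KO cells and 70 UMIs in 30 WT cells, or 188 and 127 CPM. Its level was again higher in plasmacytoid dendritic cells, at 252 CPM in Ythdf2 KO and 222 CPM in WT. H2-DMb2, a chain of the H2-DM molecule that loads peptides onto class II, had 16 UMIs in 8 Ythdf2 KO cells and 47 UMIs in 26 WT cells, or 73.4 and 85.1 CPM. H2-DMb2 lies beside a closely similar copy, H2-DMb1, so the division of reads between the pair is uncertain. The ratio Ythdf2 KO over WT was 1.38 (0.732 to 2.53) for Flt3, 1.18 (0.761 to 1.80) for Kmo, 1.48 (0.983 to 2.21) for Clec10a and 0.862 (0.456 to 1.55) for H2-DMb2. Each of these intervals includes 1.

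To compare shares of cells at equal depth, each cell was thinned to 2000 UMIs, which left out no selected cell, and T cells thinned in the same way served as the background of free RNA (444 Ythdf2 KO and 532 WT cells, with 38 and 53 shallower ones left out). Median depths before thinning were 6914 UMIs in Ythdf2 KO and 6451 UMIs in WT for the selected cells, and 5178 and 4392 for the T cells. Kmo was found in 21.4% (8.3 to 41.0) of Ythdf2 KO cells and 24.4% (15.3 to 35.4) of WT cells (64.3% and 42.3% before thinning), against 0.225% and 0.376% of T cells. Clec10a was found in 17.9% and 19.2% (14 of 28 and 30 of 78 cells before thinning), against 0.450% and 0.752% of T cells. H2-DMb2 stood at 17.9% in Ythdf2 KO and 19.2% in WT (28.6% and 33.3% before thinning), against 1.58% and 1.13% of T cells. Flt3 reached 7.14% (0.877 to 23.5) and 5.13% (1.41 to 12.6), against 0.450% and 0.188% of T cells, and 39.3% and 29.5% before thinning.

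The genes used to recognise monocytes stood closer to the shares of T cells. Ly6c2, a surface protein of inflammatory monocytes that some T cells also make, was found at this depth in 67.9% (47.6 to 84.1) of Ythdf2 KO cells and 56.4% (44.7 to 67.6) of WT cells (78.6% and 80.8% before thinning), against 68.0% and 60.9% of T cells. Fcgr1, a high-affinity antibody receptor, was found in 35.7% and 37.2% (60.7% and 65.4% before thinning), against 27.9% and 25.9% of T cells. Lyz2, the lysozyme of myeloid cells, was found in 14 of 28 Ythdf2 KO cells (30.6% to 69.4%) and 55.1% (43.4 to 66.4) of WT cells (78.6% and 73.1% before thinning), against 33.8% and 32.1% of T cells. The WT share of Lyz2 lay above that of T cells, while the Ly6c2 shares lay at or under theirs. For Ly6c2 this decides nothing, since T cells that make it are no measure of free RNA.

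**Figure D2:**
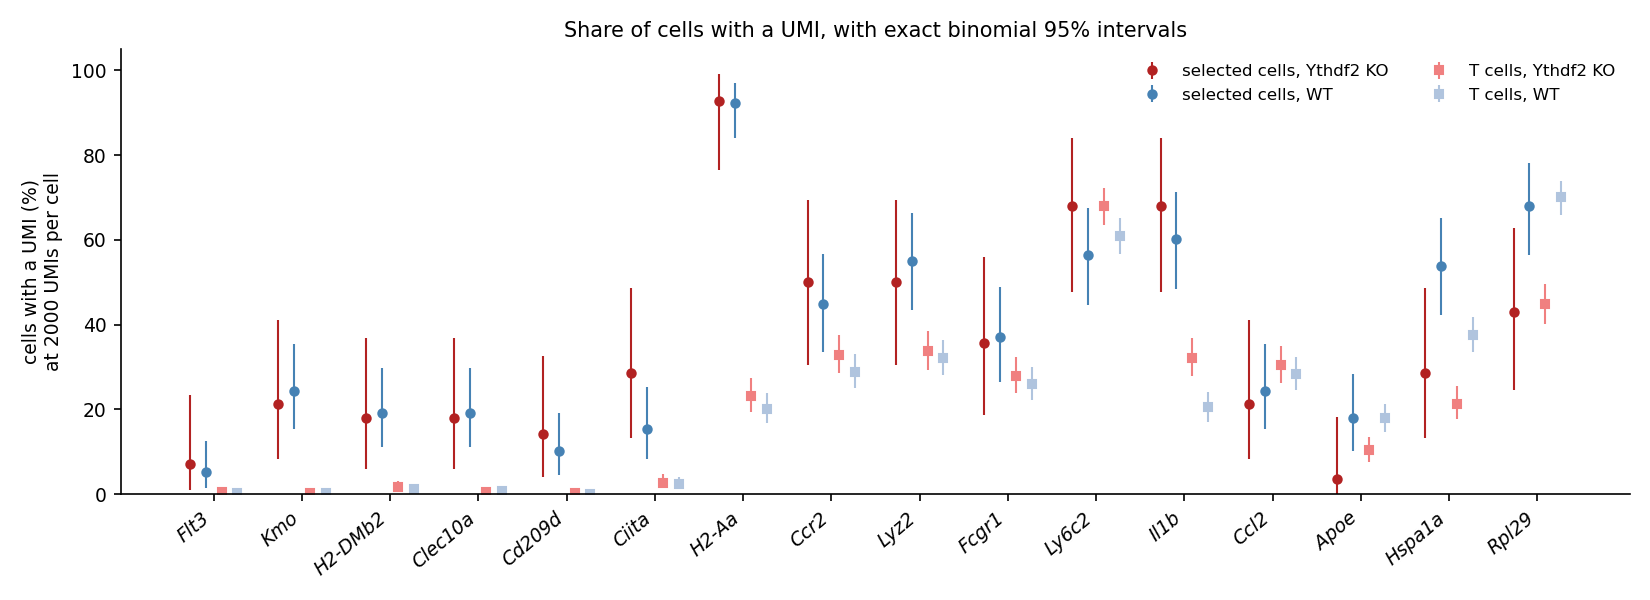
Share of cells with a UMI after thinning to 2000 UMIs per cell, in percent, with exact binomial 95% intervals, for the selected cells (circles) and T cells (squares) of Ythdf2 KO and WT. Flt3, Kmo, H2-DMb2 and Clec10a were under 2% in T cells, whereas the shares of Ly6c2, Ccl2, Apoe and Rpl29 in the selected cells were at or under those of T cells of the same library.

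In summed level, Ly6c2 in the selected cells was 1440 CPM in Ythdf2 KO and 1195 CPM in WT, against 3583 and 3523 CPM of Ly6c2 in monocytes. Monocytes were chosen by Ly6c2 and Vcan, so their higher Ly6c2 level follows in part from that choice. Single cells ranged widely, since the sum of Ly6c2 and Vcan ran from 0 to 66 UMIs with a median of 4 in Ythdf2 KO cells and from 0 to 63 with a median of 3 in WT cells. That sum was at least 4, the minimum used for monocytes here, in 15 of 28 Ythdf2 KO cells and 38 of 78 WT cells, and 0 in 6 and 15. Cells with at least 2 UMIs of the other marker genes and a Ly6c2 plus Vcan sum under 4 numbered 8 in Ythdf2 KO and 26 in WT. The opposite pattern was shown by 2 and 22 cells. Both at least 2 UMIs of the other marker genes and a sum of at least 4 were found in 13 Ythdf2 KO and 16 WT cells. Neither was found in 5 and 14.

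The label cDC2 held for these cells only in part. Zbtb46, a transcription factor of conventional dendritic cells, had 5 UMIs in the Ythdf2 KO cells and 7 in the WT cells. The cDC2 genes Ccl17, Clec4a4, Esam and Dtx1 had no UMI in 28 Ythdf2 KO cells, which allows a share of cells with a UMI of up to 10.7%, and none in 78 WT cells, which allows up to 3.85%. Of the 25 genes listed for cDC2 identity, 6 in Ythdf2 KO and 4 in WT were at 0. Others on that list were high: Cd209d stood at 111 times all other kept barcodes in Ythdf2 KO and 68.8 times in WT. Cd7 stood at 17.8 and 13.9 times and Ffar2 at 10.8 and 10.6 times. The summed level of that list was 6165 CPM in Ythdf2 KO and 5798 CPM in WT, close to the 5777 and 5326 CPM of monocytes. The 13 genes listed for conventional dendritic cells in general summed to 913 CPM in Ythdf2 KO and 792 CPM in WT, above the 257 and 232 CPM of monocytes and below the 2305 and 1924 CPM of cDC1. The cells are therefore called Cd209a cells from here on, by the gene that leads their rule.

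A small number carried plasmacytoid genes. The sum of Siglech, Ccr9 and Klk1 was at least 3, the minimum used for plasmacytoid dendritic cells here, in 4 of 28 Ythdf2 KO cells (14.3%, 4.03 to 32.7) and 5 of 78 WT cells (6.41%, 2.11 to 14.3). Siglech, a receptor of plasmacytoid cells, had 48 UMIs in 5 Ythdf2 KO cells and 41 UMIs in 7 WT cells. At 2000 UMIs, 17.9% (6.06 to 36.9) of Ythdf2 KO cells and 6.41% (2.11 to 14.3) of WT cells held it (17.9% and 8.97% before thinning), against 0.450% of Ythdf2 KO T cells and 0 of 532 WT T cells, which allows a share of up to 0.564%. The whole list of 11 plasmacytoid genes was summed at 2417 CPM in Ythdf2 KO and 1447 CPM in WT, with none of its members at 0 in either library. The sum was 15494 and 13809 CPM in plasmacytoid dendritic cells, which were chosen by Siglech, Ccr9 and Klk1 of this list.

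Markers of T cells were low, while the summed NK cell genes were above the monocyte level in Ythdf2 KO and close to it in WT. Of the 10 T cell genes listed, the 7 outside the rule summed to 124 CPM in Ythdf2 KO and 123 CPM in WT, against 2485 and 2401 CPM in T cells, and Bcl11b was at 0 in both. The 8 NK cell genes outside the rule summed to 1592 CPM in Ythdf2 KO and 1170 CPM in WT, with Klra8 at 0 in WT. Their sum was 944 and 1071 CPM in monocytes and 3321 and 3015 CPM in T cells. Mature dendritic cells held more, at 8700 and 14882 CPM, so the sum does not mark NK cells alone. At least 1 UMI of these 8 genes was found in 21 of 28 Ythdf2 KO cells and 64 of 78 WT cells. Gzma, a granzyme of killer lymphocytes, had 106 UMIs in 7 Ythdf2 KO cells and 251 UMIs in 30 WT cells, with 47 and 154 of them in 1 cell each. Of the UMIs of all 10 NK cell genes listed, 1 cell gave 33.4% in Ythdf2 KO and 1 cell 29.1% in WT.

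The Cd209a cells were mixed. Clustered together without the genes of the rule, they fell into 3 groups of 52, 37 and 17 cells, each with cells of both libraries. The first was led by Gzma, Gzmc and Ctla2a, the second by the monocyte and macrophage genes Fn1, F13a1, Cx3cr1 and Lyz2, and the third by Chil3, Ccl2, Apoe and Ccl12. In the group of 52, Gzma was found in only 22 cells, Gzmc in 28 and Ctla2a in 17. None of the groups was named. The only gene of a dendritic cell list among the 10 leading genes of any was Il1r2, in the group of 52. Their sizes were not compared between libraries because their leading genes were among those that differed. A finer setting gave 7 groups, of which 1, with 21 cells, had Flt3 and Cd7 among its leading genes. At that setting Gzma, Nkg7, Gzmc and Ctla2a led a group of 7 cells, and the largest group, of 28, was led by Il1r2, Ly6a and Ifitm1. Flt3, Kmo, H2-DMb2 and Clec10a were each present in all 3 groups. Flt3 had 14, 16 and 4 cells in the groups of 52, 37 and 17.

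The genes that set the Cd209a cells apart from all other kept barcodes by the highest fold were read from the same cells that the rule chose and are a description. Cd209d, a relative of Cd209a from the same gene cluster (chr8:3871824-3878555), was highest at 111 times the rest in Ythdf2 KO and 68.8 times in WT, from 24 UMIs in 9 Ythdf2 KO cells and 31 UMIs in 16 WT cells. Clec10a stood at 20.2 and 14.7 times and Kmo at 17.5 and 15.9 times. Cd7, a surface receptor, stood at 17.8 times the rest in Ythdf2 KO and 13.9 times in WT. Bcl11a, a transcription factor needed for plasmacytoid cells, stood at 15.7 and 11.1 times, and Ffar2, a receptor for short-chain fatty acids, at 10.8 and 10.6 times. Ffar2 was the only 1 of the 15 whose highest other population was neutrophils, and it was 518% of the neutrophil level.

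Plasmacytoid dendritic cells held most of several of these genes. Siglech, Ccr9 and Cox6a2 reached in the Cd209a cells only 7.75%, 5.20% and 11.5% of their plasmacytoid level. Siglech and Ccr9 helped to choose the plasmacytoid dendritic cells, so their level there follows in part from that choice. Cox6a2 did not. Bcl11a was at 24.3% of that level, Cd7 at 66.5%, Clec10a at 66.4% and Kmo at 60.4%, while Cd209d was at 163%. For Flt3, H2-DMb1, H2-DMb2, Dpp4 and Ciita the highest other population was cDC1, and the Cd209a cells stood at 48.0%, 103%, 70.4%, 76.3% and 76.3% of its level. The fold of Siglech over the rest was 14.1 in Ythdf2 KO and 8.58 in WT, of Ccr9 7.79 and 6.29, and of Cox6a2 11.6 and 13.8. H2-Oa, a chain of the H2-O molecule that restrains H2-DM, was at 5.78 and 8.25 times the rest, and Dpp4, a surface peptidase, at 5.52 and 7.18 times.

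**Figure D3:**
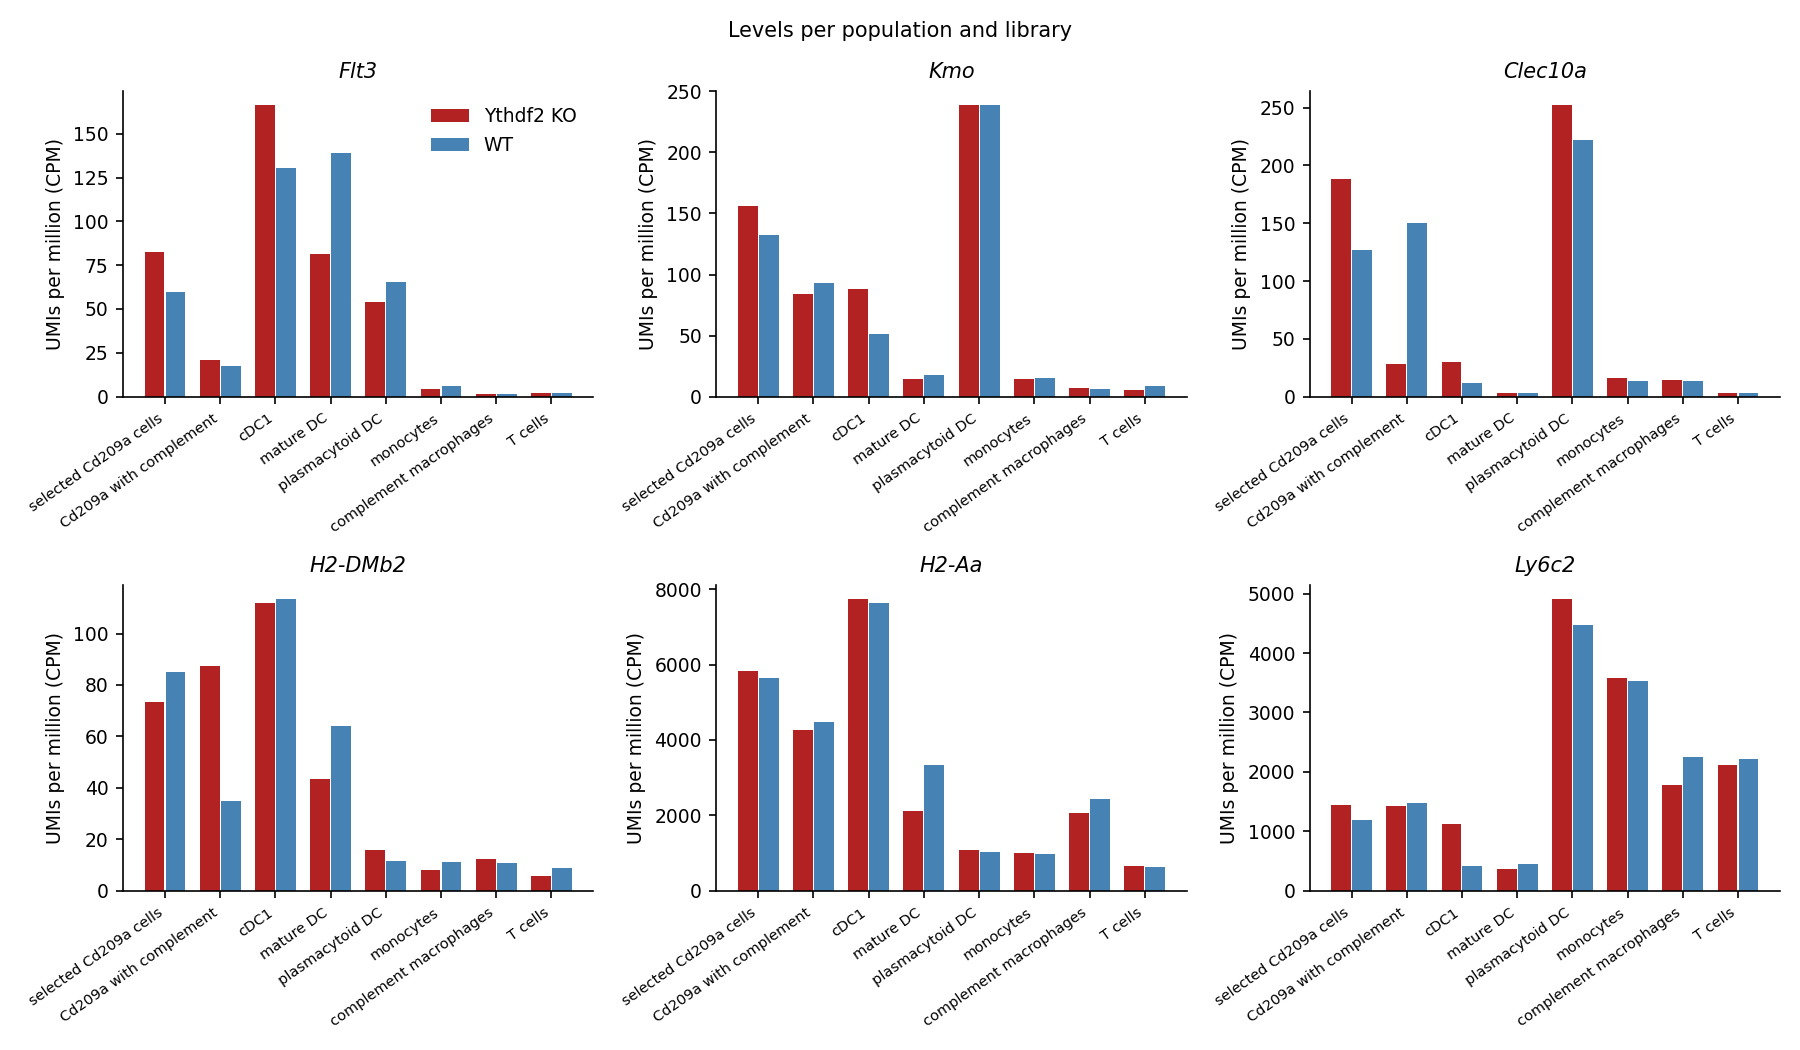
Level of 6 genes in CPM in each population, with Ythdf2 KO left of WT in each pair of bars and no error bar, since each bar is 1 library. Kmo and Clec10a were highest in plasmacytoid dendritic cells, followed for Kmo by the selected Cd209a cells. H2-Aa was highest in cDC1 and next in the Cd209a cells. Ly6c2 was lower in the Cd209a cells than in monocytes, which were chosen by Ly6c2 and Vcan.

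Class II genes were abundant on nearly all of these cells. H2-Aa, the alpha chain of the I-A molecule (chr17:34282744-34287823, minus strand), had a lowest value of 0, a median of 46.5 and a highest value of 98 UMIs per Ythdf2 KO cell, and 0, 37.5 and 149 per WT cell. It was present in 26 of 28 Ythdf2 KO cells and 73 of 78 WT cells. At 2000 UMIs H2-Aa was found in 92.9% (76.5 to 99.1) of Ythdf2 KO cells and 92.3% (84.0 to 97.1) of WT cells (92.9% and 93.6% before thinning), against 23.2% and 20.1% of T cells. The level of H2-Aa was 5821 CPM in Ythdf2 KO and 5646 CPM in WT, 5.77 and 5.71 times that of monocytes, and 0.753 and 0.740 times that of cDC1.

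Other genes of the presentation pathway stood above monocytes by like factors. Relative to monocytes, H2-Ab1, the partner chain of H2-Aa, was at 6.04 times in Ythdf2 KO and 5.77 times in WT. H2-Eb1, of the second class II molecule, was at 6.63 and 6.14 times, and Cd74, the invariant chain that guards the peptide groove, at 4.70 and 4.53 times. H2-DMb1 was at 5.32 and 4.81 times, and H2-DMa, its partner, at 3.0 and 3.29 times. Ciita, the transactivator that switches class II genes on, was at 6.42 and 4.51 times, with 47 UMIs in 21 Ythdf2 KO cells and 82 UMIs in 33 WT cells. Cd209a barcodes with complement RNA held less H2-Aa than the selected cells, at 4258 CPM in Ythdf2 KO and 4478 CPM in WT.

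Class II promoters share short boxes that the factors working with Ciita bind, among them the Y box, which contains ATTGG. The promoters of 4 class II genes that hold ATTGG are shown. Of these, H2-Aa, H2-Eb1 and H2-DMb1 stood above their monocyte level in the Cd209a cells. H2-DMb2 was scarce, at 73.4 CPM in Ythdf2 KO and 85.1 CPM in WT, but stood at 4.88 and 6.15 times all other kept barcodes. H2-DMb1 stood at 5.76 and 5.57 times them. The promoters of H2-Ab1 and Ciita were not in the sources used here. Each line gives the 100 bases before the gene's start in RefSeq (GRCm38.p6), 5′ to 3′ on the strand of the gene, with the first ATTGG in capitals.
H2-Aa: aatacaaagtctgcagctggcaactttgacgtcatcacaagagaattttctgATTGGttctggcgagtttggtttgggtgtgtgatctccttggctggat
H2-Eb1: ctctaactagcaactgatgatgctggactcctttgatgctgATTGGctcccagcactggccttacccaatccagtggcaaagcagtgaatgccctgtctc
H2-DMb1: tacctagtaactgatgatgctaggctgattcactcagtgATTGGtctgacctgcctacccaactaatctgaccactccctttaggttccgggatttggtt
H2-DMb2: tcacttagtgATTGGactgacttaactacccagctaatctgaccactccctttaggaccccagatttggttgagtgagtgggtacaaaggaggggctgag

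These stretches lie at chr17:34287824-34287923 (minus strand) for H2-Aa, and on the plus strand at chr17:34305767-34305866 for H2-Eb1, chr17:34153091-34153190 for H2-DMb1 and chr17:34145149-34145248 for H2-DMb2. The RefSeq start of H2-DMb2 lies inside the longer gene span that GENCODE gives it, chr17:34143307-34151555. The first base of ATTGG lay 48, 59, 61 and 90 bases before the start, in that order of genes. H2-Oa and H2-Ob had it too, at 43 and 57 bases, whereas the stretches of H2-DMa, Cd209a, Kmo and Flt3 held it on neither strand. Of 32851 RefSeq promoters, 18.9% held ATTGG or its reverse complement CCAAT in the same 100 bases, and 10.4% held ATTGG on the gene's strand. A match is only a run of letters and was not linked to binding here.

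Between the libraries class II genes were close. Of the 14 genes listed, 10 had at least 100 UMIs over both libraries, the minimum for comparing a gene, and none of the 10 differed by 1.5-fold or more, against 5.13% of all 1111 genes compared at least 1.5-fold higher in Ythdf2 KO and 4.41% at least 1.5-fold lower. The list's median log2 ratio, Ythdf2 KO over WT, was 0.07, against 0.02 for all genes compared, and it became -0.06 and -0.07 when the libraries were scaled by edgeR's TMM or RLE factors. The ratio was 1.03 (0.965 to 1.10) for H2-Aa, 1.08 (1.02 to 1.15) for H2-Ab1, 1.05 (0.978 to 1.13) for H2-Eb1 and 1.08 (1.03 to 1.13) for Cd74. Ciita stood at 1.45 (0.992 to 2.10). Class I genes had a median of 0.04, or -0.09 with TMM and -0.10 with RLE, with 2 of 15 higher, H2-Q7 and H2-T22, both members of gene families whose reads can be shared.

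Over all 1111 genes, 57 were at least 1.5-fold higher in Ythdf2 KO and 49 at least 1.5-fold lower, 9.54% in either direction. TMM and RLE factors moved every log2 ratio by -0.13 and -0.14, which changed the split to 39 higher and 82 lower with TMM and 37 higher and 85 lower with RLE. Ratios near 1.5 in either direction depend on that scaling. Many of the higher genes rested on few cells. In 19 of the 57, more than 30% of the Ythdf2 KO UMIs came from 1 cell, and 35 of the 57 were still at least 1.5-fold higher when the cell with the most UMIs of each gene was left out of both libraries. Of the 49 lower genes 48 were still lower under that change.

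**Figure D4:**
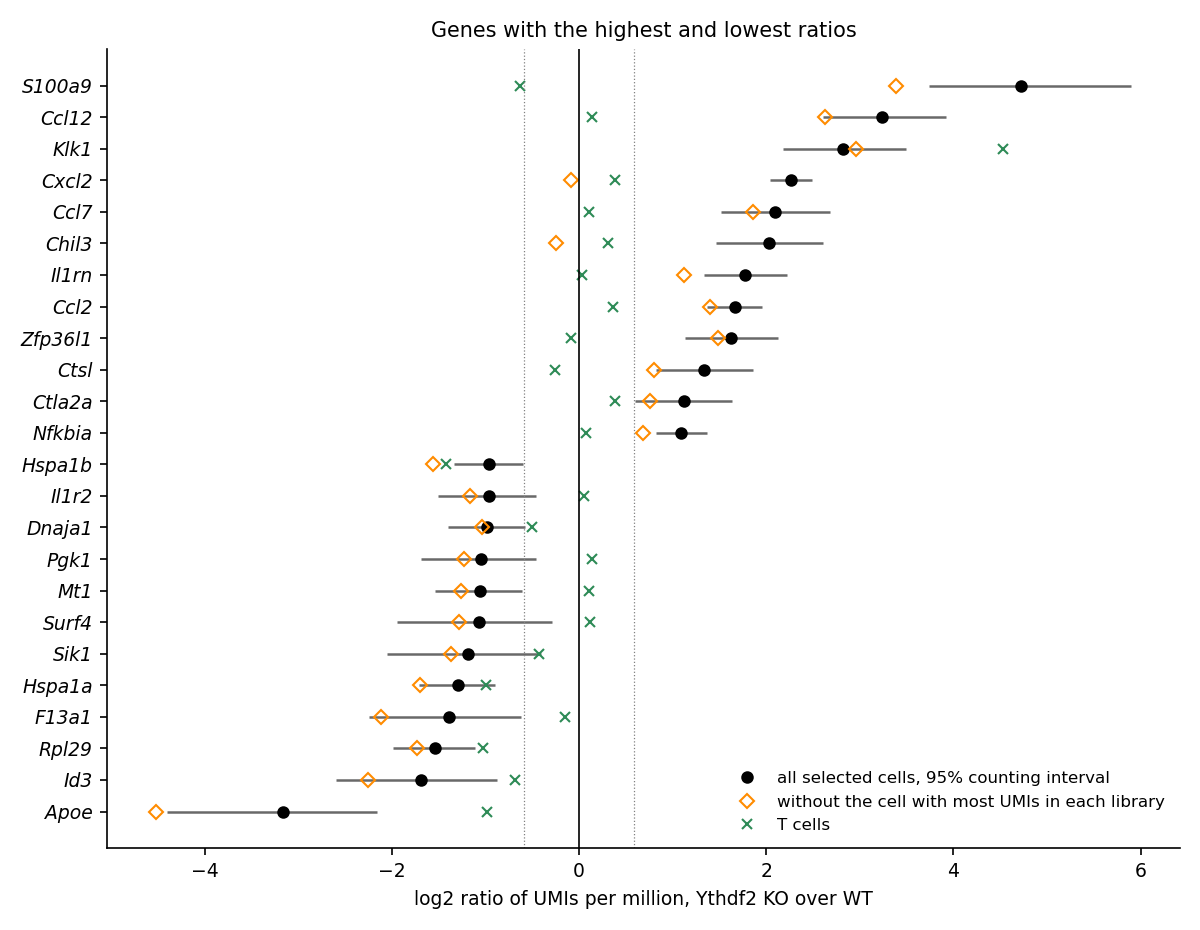
Log2 ratio of CPM, Ythdf2 KO over WT, for the 12 highest and 12 lowest genes in the Cd209a cells (dots, with 95% counting intervals), the same without the cell with the most UMIs in each library (diamonds), and in T cells (crosses). Dotted lines mark 1.5-fold. The diamonds of Cxcl2 and Chil3 lie below 0, and the crosses of Hspa1a, Hspa1b and Rpl29 lie on the same side of 0 as their dots.

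Chemokines, the secreted proteins that attract leukocytes, had the highest median of the lists with at least 4 genes compared. Of its 20 genes 10 had enough UMIs, and 8 of these 10 were at least 1.5-fold higher in Ythdf2 KO, against 5.13% of all genes compared, with none lower. The median log2 ratio was 1.03, and it was 0.47 without each gene's leading cells and -0.03 with a minimum of 4 Cd209a UMIs, a setting that leaves 13 Ythdf2 KO and 50 WT cells. Summed over the list, the level was 11913 CPM in Ythdf2 KO and 5950 CPM in WT, and 1 Ythdf2 KO cell gave 32.7% of the Ythdf2 KO sum.

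Ccl4, which attracts T and NK cells, was the most abundant, with 782 UMIs in 24 Ythdf2 KO cells and 1190 UMIs in 63 WT cells, or 3587 and 2156 CPM. Its ratio was 1.66 (1.52 to 1.82), and 1.54 without the leading cells. Cxcl2, a neutrophil attractant, had 471 UMIs in Ythdf2 KO and 249 in WT, a ratio of 4.79 (4.10 to 5.61), but 409 of the 471 came from 1 cell and the ratio without the leading cells was 0.940. Cxcl2 in the Cd209a cells was 8.67% of its level in neutrophils, where the ratio was 1.30, and 1.30 in T cells as well.

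The monocyte attractants Ccl2, Ccl7 and Ccl12 were higher under the rule, but with a Cd209a minimum of 4 UMIs their ratios were 0.0523, 0.231 and 0. With at most 1 UMI of Ly6c2, Vcan, Fcgr1 and Mgst1 together, 6 Ythdf2 KO and 15 WT cells were left. There Ccl2 and Ccl12 were at 0, whereas Ccl7 was at 2.86. The median log2 ratio of the chemokine list was 1.09 in these few cells, with 221 genes of all kinds compared. Ccl2 had 225 UMIs in 10 Ythdf2 KO cells and 180 UMIs in 32 WT cells, a ratio of 3.17 (2.59 to 3.87) and of 2.64 without the leading cells. At 2000 UMIs, 21.4% (8.3 to 41.0) of Ythdf2 KO cells and 24.4% (15.3 to 35.4) of WT cells held Ccl2 (35.7% and 41.0% before thinning), against 30.4% and 28.4% of T cells, so its share was at background, and 72 of the 225 UMIs came from 1 cell. Ccl7 had 69 UMIs in 7 Ythdf2 KO cells and 41 UMIs in 16 WT cells, a ratio of 4.26 (2.86 to 6.44), and was at 11% of its level in complement macrophages, where the ratio was 1.27. It was 1.08 in T cells. Ccl12 had 97 UMIs in 6 Ythdf2 KO cells and 26 UMIs in 15 WT cells, a ratio of 9.45 (6.08 to 15.2). Ccl3 and Ccl6, at ratios of 2.07 (1.62 to 2.65) and 1.53 (1.2 to 1.93), were at 0.590 and 1.03 without the leading cells. Ccl5 stood at 2.02 (1.55 to 2.63). Cxcl10, induced by interferon, was at 1.39 (1.24 to 1.57), from 447 UMIs in Ythdf2 KO and 813 in WT, under the 1.5-fold limit.

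Il1b, the inflammatory cytokine interleukin 1 beta, was higher with less weight on single cells. It had a lowest value of 0, a median of 13.5 and a highest value of 103 UMIs per Ythdf2 KO cell, and 0, 5 and 73 per WT cell. Its level was 2573 CPM in Ythdf2 KO and 1304 CPM in WT, a ratio of 1.97 (1.76 to 2.21), which was 1.79 without the leading cells. At 2000 UMIs, 67.9% (47.6 to 84.1) of Ythdf2 KO cells and 60.3% (48.5 to 71.2) of WT cells held Il1b (82.1% and 73.1% before thinning), against 32.2% and 20.5% of T cells. T cells, whose Il1b was 1036 CPM in Ythdf2 KO and 471 CPM in WT, and monocytes, at 2615 and 1524 CPM, were higher in Ythdf2 KO as well. Whether free RNA took part in the difference was not tested. Il1rn, the receptor antagonist of the same family, had 104 UMIs in 9 Ythdf2 KO cells and 77 UMIs in 22 WT cells, a ratio of 3.42 (2.52 to 4.65), and of 2.17 without the leading cells. That ratio of Il1rn was 0.439 with a Cd209a minimum of 4 UMIs and 0 in the cells with low monocyte genes.

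Other genes among the 12 highest included S100a9, a calcium-binding protein that neutrophils make in large amounts, with 94 UMIs in 10 Ythdf2 KO cells and 9 UMIs in 9 WT cells. Its ratio was 26.5 (13.4 to 59.6), and 0 in the cells with low monocyte genes, but 61 of the 94 UMIs came from 1 cell and the level was 0.414% of that in neutrophils, where the ratio was 0.618. It was 0.647 in T cells. At 2000 UMIs, 14.3% (4.03 to 32.7) of Ythdf2 KO cells and 2.56% (0.312 to 8.96) of WT cells held S100a9 (35.7% and 11.5% before thinning), against 11.5% and 9.59% of T cells. Chil3, a chitinase-like protein of monocytes, had 71 UMIs in Ythdf2 KO and 44 in WT, a ratio of 4.09 (2.77 to 6.1), of which 61 UMIs were in 1 Ythdf2 KO cell. Without the leading cells the ratio of Chil3 was 0.844. Chil3 was at 11.6% of its monocyte level, with a ratio of 0.972 in monocytes and 1.24 in T cells.

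Klk1, a kallikrein peptidase abundant in mouse plasmacytoid dendritic cells, had 78 UMIs in 4 Ythdf2 KO cells and 28 UMIs in 5 WT cells, a ratio of 7.06 (4.53 to 11.3). These 4 Ythdf2 KO cells were the ones over the plasmacytoid minimum, and with all such cells left out Klk1 had no UMI in Ythdf2 KO. Klk1 was at 7.84% of its level in plasmacytoid dendritic cells, which it helped to choose, and the ratio there was 1.27. T cells held 13.9 CPM of Klk1 in Ythdf2 KO and 0.600 CPM in WT. Ctsl, a lysosomal protease, had 66 UMIs in each library, a ratio of 2.53 (1.77 to 3.62), which became 0.664 without the cells over the plasmacytoid minimum. Ctsl was at 11.6% of its plasmacytoid level, with a ratio of 0.859 there and 0.839 in T cells.

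Zfp36l1, which binds mRNA and promotes its decay, was spread over more cells, with 78 UMIs in 19 of 28 Ythdf2 KO cells and 64 UMIs in 31 of 78 WT cells. The ratio was 3.09 (2.19 to 4.37), and 2.79 without the leading cells. Nfkbia, an inhibitor of NF-kappaB that is itself induced by it, had 207 UMIs in 22 Ythdf2 KO cells and 246 UMIs in 52 WT cells, a ratio of 2.13 (1.76 to 2.57), of 1.60 without the leading cells and of 0.943 with a Cd209a minimum of 4 UMIs. Ctla2a, an inhibitor of cysteine proteases with a close copy beside it, was at 2.17 (1.51 to 3.11), and at 0.474 without the 8% highest doublet scores. It was found in 5 Ythdf2 KO cells and 22 WT cells, and stood at 17.4% of its T cell level, where the ratio was 1.30. Of its 60 Ythdf2 KO UMIs 32 came from 1 cell.

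Interferon-induced genes were higher in part. Of 15 type I interferon genes compared, 5 were at least 1.5-fold higher in Ythdf2 KO, against 5.13% of all genes, with none lower. Ifit3 stood at 2.0 (1.65 to 2.41) and Ifit1, which binds foreign RNA ends, at 1.82 (1.51 to 2.18), from 203 UMIs in 20 Ythdf2 KO cells and 283 UMIs in 46 WT cells. Rsad2, the antiviral protein viperin, was at 1.59 (1.36 to 1.85) and Oasl2 at 1.68 (1.21 to 2.32). Isg15, a ubiquitin-like protein of the same response, was at 0.994 (0.850 to 1.16), from 230 UMIs in Ythdf2 KO and 586 in WT. The list's median log2 ratio was 0.21, but -0.0099 with a Cd209a minimum of 4 UMIs and -0.155 with at least 1 UMI of Flt3. Summed, the list was at 8761 CPM in Ythdf2 KO and 6880 CPM in WT. It was lower in Ythdf2 KO in monocytes (11082 and 13254 CPM), complement macrophages (8616 and 10359) and T cells (6339 and 7094). In cDC1 (5980 and 4482) and neutrophils (16301 and 12986) it was higher. The median of 10 interferon gamma genes was 0.23, with only Gbp7 over 1.5-fold.

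The activation genes Cd86 and Cd83 were 2 of the 4 costimulatory genes with enough UMIs, and both were at least 1.5-fold higher, against 5.13% of all genes compared. Cd86, which binds Cd28 on T cells, had 56 UMIs in 17 Ythdf2 KO cells and 90 UMIs in 38 WT cells, a ratio of 1.58 (1.11 to 2.22). It was 1.5 without the leading cells. Cd83, which keeps class II on the surface, was at 1.71 (1.22 to 2.37). Clec4a1, an inhibitory lectin receptor, was at 1.98 (1.33 to 2.96) from 18 Ythdf2 KO cells and 30 WT cells, whereas Clec4e, the receptor Mincle, was at 1.67 (1.13 to 2.43) with 39 of its 48 Ythdf2 KO UMIs in 1 cell.

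Apoe, the lipid carrier that tumour macrophages make in large amounts (chr7:19696109-19699188), was the lowest of all. It had 8 UMIs in 3 of 28 Ythdf2 KO cells and 182 UMIs in 24 of 78 WT cells, or 36.7 CPM and 330 CPM, a ratio of 0.111 (0.0473 to 0.224). Its size depended on the selection: the ratio was 0.608 with a Cd209a minimum of 1 UMI, 0.596 with at least 1 UMI of Flt3, 0.715 with low monocyte genes, 0.377 without the complement and Arg1 limits, 0.0209 with no complement UMI and 0.0437 without the leading cells. At 2000 UMIs, 3.57% (0.0904 to 18.3) of Ythdf2 KO cells and 17.9% (10.2 to 28.3) of WT cells held it (10.7% and 30.8% before thinning), against 10.4% and 17.9% of T cells, so both shares were at or under background. The level of Apoe in the Cd209a cells was 6.59% of that in complement macrophages, where the ratio was 0.396. The ratio was 0.506 in T cells and 0.327 in monocytes, lower in Ythdf2 KO in each. In this selection 1 WT cell held 66 of the 182 UMIs.

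Some heat shock genes, chaperones that rise under stress, were lower. Of the 8 compared 3 were at least 1.5-fold lower, against 4.41% of all genes, with none higher, and the median log2 ratio was -0.49. Hspa1a had 61 UMIs in 13 Ythdf2 KO cells and 378 UMIs in 58 WT cells, or 280 and 685 CPM, a ratio of 0.409 (0.307 to 0.537). Hspa1b, its nearly identical neighbour, was at 0.513 (0.396 to 0.658), and Dnaja1, a cochaperone, at 0.507 (0.378 to 0.669). Hspa8, the constitutive chaperone, was at 0.768 (0.672 to 0.876) and Hsp90ab1 at 0.954 (0.833 to 1.09). In T cells the ratios of Hspa1a, Hspa1b and Dnaja1 were 0.502, 0.373 and 0.705, and at 2000 UMIs Hspa1a was found in 28.6% of Ythdf2 KO Cd209a cells and 53.8% of WT ones (46.4% and 74.4% before thinning), against 21.4% and 37.6% of T cells.

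Rpl29, a protein of the large ribosomal subunit with many processed copies in the genome, had 50 UMIs in 17 of 28 Ythdf2 KO cells and 367 UMIs in 73 of 78 WT cells, a ratio of 0.345 (0.251 to 0.465). It was 0.490 in T cells and 0.525 in monocytes. At 2000 UMIs, 42.9% (24.5 to 62.8) of Ythdf2 KO cells and 67.9% (56.4 to 78.1) of WT cells held Rpl29 (60.7% and 93.6% before thinning), against 44.8% and 70.1% of T cells.

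Glycolytic genes were lower in part. Of 11 compared, Aldoa, Tpi1, Gapdh and Pgk1 were at least 1.5-fold lower, against 4.41% of all genes compared, and none higher, with a median log2 ratio of -0.32. That median was -0.09 without the limits on complement genes and Arg1. Gapdh had 167 UMIs in 26 Ythdf2 KO cells and 667 UMIs in 75 WT cells, a ratio of 0.634 (0.532 to 0.752). Tpi1 was at 0.543 (0.361 to 0.795). Pgk1 was at 0.482 (0.310 to 0.726), with a ratio of 1.10 in T cells and 0.956 in monocytes, and at 1.03 without the limits on complement genes and Arg1. The 26 nuclear genes of oxidative phosphorylation compared had a median of 0.02, or -0.11 with TMM and -0.12 with RLE, with none past 1.5-fold in either direction.

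**Figure D5:**
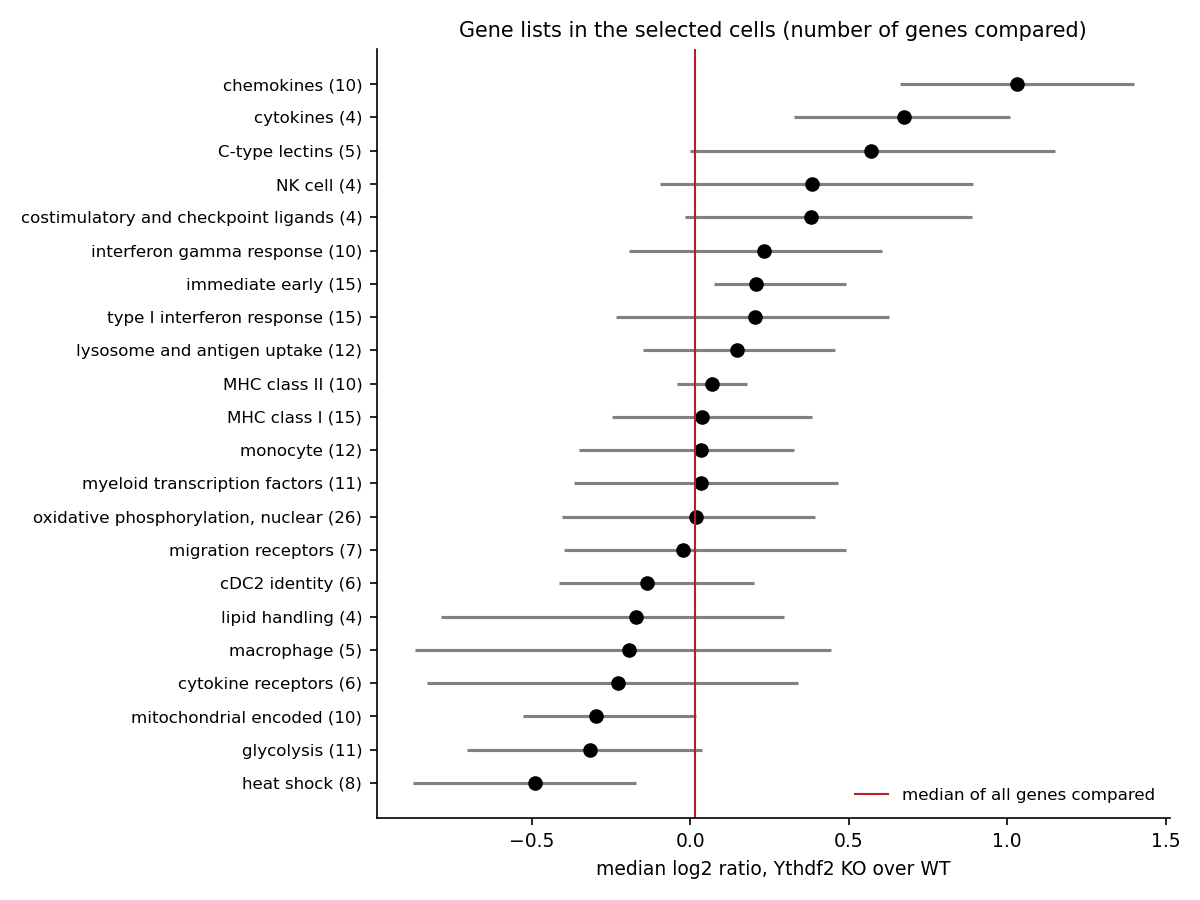
Median log2 ratio, Ythdf2 KO over WT, of each gene list with at least 4 genes compared in the Cd209a cells (dots), with the number of genes compared in brackets, the medians of the genes' interval bounds as lines, and the median of all 1111 genes as a vertical line. Chemokines stood highest at 1.03 and heat shock genes lowest at -0.49, while MHC class I and II lay near the median of all genes.

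The remaining genes among the 12 lowest were of mixed kinds. Id3, an inhibitor of helix-loop-helix transcription factors, had 14 UMIs in 5 Ythdf2 KO cells and 114 UMIs in 31 WT cells, a ratio of 0.311 (0.165 to 0.544), against 0.419 in plasmacytoid dendritic cells. F13a1, a clotting factor chain of monocytes, was at 0.382 (0.211 to 0.650), against 0.707 in monocytes. Mt1, a metallothionein, was at 0.481 (0.345 to 0.656), with 48 UMIs in 15 Ythdf2 KO cells and 253 UMIs in 50 WT cells. Il1r2, the decoy receptor for interleukin 1, was at 0.512 (0.351 to 0.729), with 38 UMIs in 15 Ythdf2 KO cells and 188 UMIs in 41 WT cells. Sik1, a kinase, and Surf4, a cargo receptor of the early secretory pathway, stood at 0.440 (0.242 to 0.754) and 0.477 (0.261 to 0.819), from 16 Ythdf2 KO UMIs each.

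Just outside the Cd209a minimum, 23 Ythdf2 KO and 41 WT barcodes with 1 UMI met every other limit, and 14 and 25 of them held at least 1 UMI of the other marker genes (60.9% and 61.0%). Just inside, among cells with 2 UMIs, 5 of 8 and 10 of 15 did so (62.5% and 66.7%). H2-Aa stood at 6120 CPM in Ythdf2 KO and 5749 CPM in WT outside, and at 3773 and 5193 CPM inside. At the complement limit, cells with no complement UMI numbered 19 in Ythdf2 KO and 57 in WT and cells with 1 UMI 9 and 21, while barcodes with 2 or 3 UMIs numbered 1 and 3, and those with 4 or more 12 and 16.

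Most barcodes with the other markers had no Cd209a. Barcodes with a sum of at least 4 UMIs of Flt3, Kmo, H2-DMb2 and Clec10a numbered 370 in the Ythdf2 KO library and 500 in the WT library. Of these, 328 (88.7%) and 412 (82.4%) had no Cd209a UMI at all, and 12 and 25 were among the selected cells. Such barcodes include plasmacytoid dendritic cells and cDC1, which hold the same genes.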

How the data were processed

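The deposited values are UMI counts of genes in single barcodes, not normalized by the authors. Per the submitters' processing notes, Cell Ranger 5.0.1, Seurat 4.0.4 and mouse build mm10 were used, whereas the file headers name Cell Ranger 6.1.1; this conflict was not settled. Per the labels' protocols, a 10x Genomics 5′ kit was used.

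From these counts, barcodes with at least 200 genes and at most 10% mitochondrial UMIs were kept, and populations were set by raw UMI sums. The members, gene lists and comparisons were chosen with earlier results of these data known. UMIs were summed per library and population and divided by the summed total (CPM). Ratios of genes with at least 100 UMIs over both libraries carry conditional exact intervals, shares carry exact Clopper-Pearson intervals, and levels exact Poisson intervals, all at 95% and for counting error only. Where no cell held a UMI, the share said to be allowed is 3 cells over the cells counted, not a Clopper-Pearson bound. A difference was counted from 1.5-fold. No test was run, since cells are not replicates.

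Named genes were those of the rule and its markers, the 12 highest and 12 lowest ratios whose interval lay beyond 1.2-fold, members of the lists described, and the 15 genes with the highest fold over the rest at 50 CPM or more. Genes under 20% of their level in another population are given with that share. Cells were thinned without replacement to 2000 UMIs. Clusters used 1000 variable genes, 20 components, 15 neighbours and Leiden resolution 0.5. Doublets were not removed; leaving out the 8% highest Scrublet scores was an alternative. The ratio script was tested on simulated data. Positions are from GENCODE for GRCm38 (mm10).

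Scaling factors came from edgeR 4.0.16 in R 4.3.3. The rest was done in Python 3.11.15 with scanpy 1.11.5, leidenalg 0.10.2, igraph 0.11.9, scipy 1.17.1, anndata 0.12.19, numpy 2.4.6, matplotlib 3.10.9 and pandas 2.3.3. The B cell marker list is not reported here.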

Additional observations from a re-analysis of the deposited data

Results flagged for a closer look

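A few genes differed between the libraries in opposite directions in the Cd209a cells and in another population of the same libraries. None of these differences was tested, since each population has 1 library per genotype. Klk1 had a ratio, Ythdf2 KO over WT, of 7.06 in the Cd209a cells and 0.369 (0.277 to 0.487) in complement macrophages. Ctla2a was at 2.17 in the Cd209a cells, at 0.638 (0.601 to 0.677) in complement macrophages and at 0.491 (0.419 to 0.575) in mature dendritic cells. Lower in the Cd209a cells and higher in mature dendritic cells were Id3, at 0.311 and 3.02 (2.31 to 3.99), Rpl29, at 0.345 and 1.98 (1.85 to 2.13), Mt1, at 0.481 and 3.87 (3.52 to 4.26), and Pgk1, at 0.482 and 2.23 (2.03 to 2.46). The ratios in the Cd209a cells turned round under some selections: Klk1 was at 0 without the cells over the plasmacytoid minimum, Ctla2a at 0.474 without the 8% highest Scrublet scores and Pgk1 at 1.03 without the complement and Arg1 limits. Klk1 in complement macrophages was low, at 3.79 CPM in Ythdf2 KO and 10.3 CPM in WT. The deepest mature dendritic cell held 80130 UMIs in Ythdf2 KO and 24008 UMIs in WT. At least 2.89% of the Ythdf2 KO mature dendritic cells were deeper than the deepest WT one. The 12 genes listed for tumour or stroma summed to 502 CPM in Ythdf2 KO mature dendritic cells and 22.7 CPM in WT ones. The part of the deep cells and of such RNA in these ratios was not tested.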

How the results depend on the processing

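No paired analysis was possible because each genotype has 1 library. The ratio of shares kept its direction under all 11 selections tried. Genes at least 1.5-fold higher and lower, 57 and 49 as reported, depended on the minimum number of UMIs: 397 and 325 of 3254 genes at 30 UMIs, 9 and 8 of 363 at 300 UMIs, and 2491 and 1528 of 8890 with 1 UMI in each library. With the leading cell of each gene left out, which by itself tends to lower ratios here, they were 37 and 93. With a Cd209a minimum of 1, 93 were higher. With TMM factors 82 were lower, with RLE factors 37 higher and 85 lower, and without the complement and Arg1 limits 74 lower. The cause was not tested except where fewer genes or cells entered. A Cd209a minimum of 4 left 37 higher genes, at least 1 Flt3 UMI left 18 and 20 (11 Ythdf2 KO and 23 WT cells), and a Ly6c2, Vcan, Fcgr1 and Mgst1 sum of at most 1 left 14 and 22 (6 and 15 cells).

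Median log2 ratios moved as follows. Chemokines were at 0.49 with a Cd209a minimum of 1, -0.028 with 4, 0.052 with Flt3, 1.42 with a complement sum of 0 and 0.47 without leading cells. MHC class II stood at 0.29 with a Cd209a minimum of 4, 0.33 with Flt3, 0.48 with low monocyte genes, -0.058 with TMM and -0.068 with RLE. Glycolysis was at -1.30 with a Cd209a minimum of 4 and -0.83 with low monocyte genes. With a Cd209a minimum of 4, MHC class I was at -0.36 and immediate early genes at 0.50, which were at 0.071 with RLE. Interferon gamma genes were at -0.44 with Flt3.

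Single ratios turned round mostly where few cells were left. With a Cd209a minimum of 4 this was so for Ccl12 (0), Ccl2 (0.0523), Ccl7 (0.231), Cd209d (0.879), Chil3 (0), Cxcl2 (0.280), Il1rn (0.439) and Nfkbia (0.943), and Ythdf2 moved to 0.439. With low monocyte genes it was so for Ccl12 (0), Ccl2 (0), Cd209d (0.318), Ctla2a (0.0681), Cxcl2 (0.166), Il1r2 (1.05), Il1rn (0) and S100a9 (0). With Flt3 it was so for Chil3 (0), Ctla2a (0.329) and Cxcl2 (0.480). Ctla2a was at 0.474 without the 8% highest Scrublet scores, Pgk1 at 1.03 without the complement and Arg1 limits, and Chil3 at 0.844 and Cxcl2 at 0.940 without leading cells. Without the cells over the plasmacytoid minimum Ctsl was at 0.664 and Klk1 at 0. A value of 0 is a gene with no Ythdf2 KO UMI left.

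Shares of cells grow with depth. Not thinned, Flt3 was found in 39.3% of Ythdf2 KO and 29.5% of WT cells, Kmo in 64.3% and 42.3%, Clec10a in 50% and 38.5%, and H2-DMb2 in 28.6% and 33.3%. At 1000 UMIs Kmo was at 11.5% in WT and H2-DMb2 at 0% in Ythdf2 KO and 8.97% in WT. Clustering at resolution 1 gave 7 groups in place of 3. The settings that leave out the cells over the plasmacytoid minimum and each gene's leading cell were chosen after seeing the data. With 28 Ythdf2 KO cells, 1 cell can decide a summed level.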
